A study of Mus musculus with 3 samples.

Results

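The 10 genes described here belong to the program of megakaryocytes, the marrow cells that release platelets: Vwf, Pf4, Gp9, Gp5, Gp1ba, Itgb3, Selp, Nfe2, Gfi1b and F2r. They were listed by symbol, with earlier results of these data known, and all 10 were found among the 24421 gene entries of the deposited count tables. The cells were hematopoietic stem and progenitor cells (HSPCs) of bone marrow, sorted as lineage-negative, c-Kit-positive and Sca-1-positive. The 3 control libraries, numbered 1 to 3 as in their titles, came from C57BL/6 mice of genotype Cicflox/flox + tamoxifen, with both alleles of the repressor gene Capicua (Cic) flanked by loxP sites and the drug given. The labels of these libraries name no Cre and give neither the animals' age nor whether animals were pooled. The series compared a pair of mouse groups, of which the other was not analysed here, so no contrast of genotypes was made.

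Platelets stop bleeding by a chain of adhesive steps. Von Willebrand factor, made by megakaryocytes and endothelial cells, tethers platelets through the glycoprotein Ib-IX-V receptor, thrombin then activates them through protease-activated receptors, and the integrin αIIbβ3 binds them to each other. Genes of this program are known to be transcribed already in part of the stem cell pool, well before a megakaryocyte forms, and a Vwf-expressing fraction of mouse stem cells is known for its platelet-biased output. Such early, low transcription of lineage genes is called priming.

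The promoters of 3 subunits of the Ib-IX-V receptor and of Pf4 are shown. They were picked because Gp1ba, Gp5 and Pf4 took 1 order over the libraries and Gp9 another, as described further down. Whether the promoters bear on these orders was not tested. Each line gives the 250 bases before the start site, 5′ to 3′ on the gene's own strand, from RefSeq on GRCm38.p6, the assembly that mm10 is based on. Gp1ba is at chr11:70638872-70639121 on the plus strand, Gp9 at chr6:87777820-87778069 on the plus strand, Gp5 at chr16:30310782-30311031 on the minus strand and Pf4 at chr5:90772185-90772434 on the plus strand. Capitals mark GATAA, the core that GATA factors bind, and GGAAG, a core that ETS factors bind, on either strand (TTATC and CTTCC are their reverse complements).
Gp1ba: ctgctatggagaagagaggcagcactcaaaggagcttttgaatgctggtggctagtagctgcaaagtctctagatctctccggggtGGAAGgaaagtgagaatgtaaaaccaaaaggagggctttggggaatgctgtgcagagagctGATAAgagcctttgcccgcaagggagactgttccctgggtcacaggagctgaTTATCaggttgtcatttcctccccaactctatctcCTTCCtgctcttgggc
Gp9: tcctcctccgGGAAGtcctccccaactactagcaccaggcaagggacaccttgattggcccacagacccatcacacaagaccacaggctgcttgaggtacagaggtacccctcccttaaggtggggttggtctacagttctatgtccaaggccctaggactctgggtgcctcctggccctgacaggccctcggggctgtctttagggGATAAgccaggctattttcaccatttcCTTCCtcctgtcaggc
Gp5: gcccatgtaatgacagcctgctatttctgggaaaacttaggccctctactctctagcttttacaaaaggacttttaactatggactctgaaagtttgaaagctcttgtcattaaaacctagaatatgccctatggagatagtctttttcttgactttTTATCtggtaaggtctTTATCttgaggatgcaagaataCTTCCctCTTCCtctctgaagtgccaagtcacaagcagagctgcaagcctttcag
Pf4: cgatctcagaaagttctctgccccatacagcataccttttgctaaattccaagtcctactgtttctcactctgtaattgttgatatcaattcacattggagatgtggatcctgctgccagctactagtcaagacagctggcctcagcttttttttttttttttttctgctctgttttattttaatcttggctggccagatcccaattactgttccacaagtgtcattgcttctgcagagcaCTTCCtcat

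Of the 10 genes, 7 were matched in the promoter table (not Vwf, Itgb3 and Nfe2), and 4 of these (Gp1ba, Gp9, Gp5 and Gfi1b) hold GATAA in the 250 bases, against 22.6% of all 32851 promoter windows of that length. GGAAG was found in 5 of the 7 (Gp1ba, Gp9, Gp5, Pf4 and Selp), against 64.1% of all. In Gp1ba and Gp9 a GGAAG on the minus strand lies at the same place, from -16 to -12 relative to the start site, and in Pf4 one lies from -9 to -5. The Runx core TGTGGT was found in Gp9 and F2r (14% of all promoters), and TGANTCA, the core shared by NF-E2 and AP-1, in Selp and F2r (6.75% of all). All searches covered both strands, and these are matches of letters, not measured binding.

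All 10 genes were expressed in every control library. Values are gene counts scaled to CPM (the usual depth-scaled unit, each count over its library's total of gene counts), given as mean ± SD over the 3 libraries, whose gene counts came to 30718562, 25097769 and 30032593. Each of the 10 reached a mean of 1 CPM, as did 53.1% of all gene entries, and the lowest count of any member in any library was 97. Their median of 23.7 CPM lay close to the median of 25.9 CPM over the 12965 genes at or above 1 CPM. To lessen the effect of transcript length, CPM was also divided by the kilobases of annotated exons. The medians were then 8.47 and 6.45 CPM per kilobase. In bulk RNA, a smaller share of primed cells and less RNA per primed cell cannot be told apart. The sort genes Kit and Ly6a (Sca-1) were at 826 ± 71.0 and 103 ± 9.50 CPM. Separate animals are not named for the 3 libraries, and their spread may be technical.

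**Figure D1:**
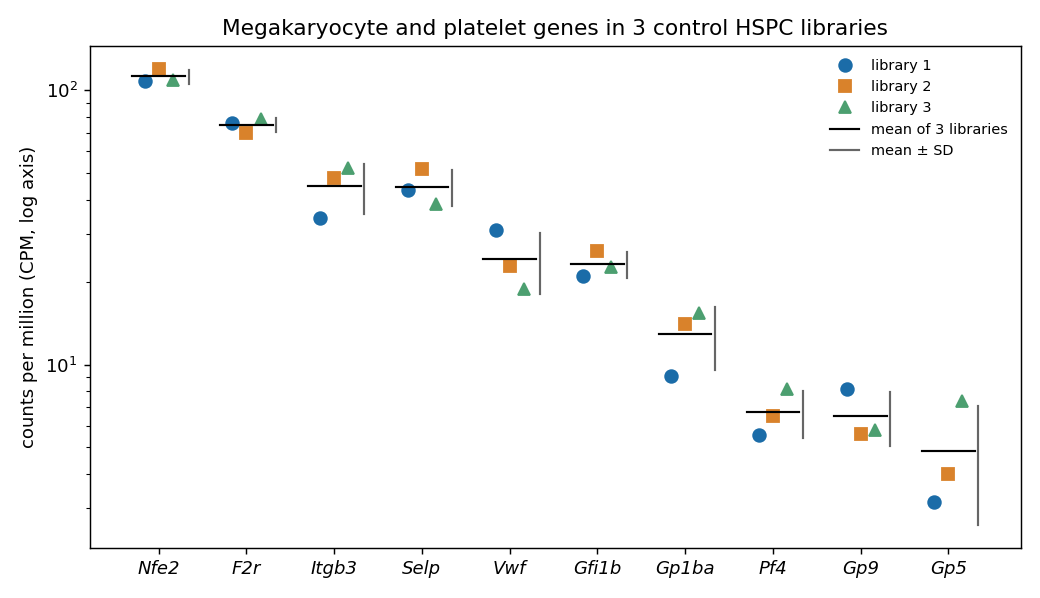
CPM (log axis) of the 10 genes in control libraries 1, 2 and 3 (points), with the mean (black bar) and mean ± SD (grey line). The points of Nfe2 and F2r lie close together, while Gp5 ranges from 3.16 to 7.36 CPM.

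The 2 transcription factors were among the steadiest members. Nfe2 encodes the large subunit of NF-E2, the factor that megakaryocytes need to release platelets. Nfe2 (chr15:103248212-103258403, minus strand) was at 108, 119.9 and 109 CPM in libraries 1, 2 and 3, a mean of 112 ± 6.50 CPM. Its libraries differed by 1.11-fold at most. Gfi1b encodes a zinc finger repressor required for megakaryocyte and erythroid development. Gfi1b (chr2:28609450-28621982, minus strand) was at 21.0, 25.9 and 22.8 CPM, a mean of 23.2 ± 2.50 CPM. Both genes were highest in library 2 and lowest in library 1.

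F2r, the thrombin receptor gene PAR1, was the other steady member. F2r (chr13:95601803-95618487, minus strand) was at 76.2, 70.01 and 78.8 CPM, a mean of 75.0 ± 4.52 CPM, with library 2 a little below the others. Mouse platelets are known to respond to thrombin mainly through the relatives encoded by F2rl2 (PAR3) and F2rl3 (PAR4), while F2r serves human platelets and other mouse cells. In the HSPCs, F2rl2, named after its values were seen, was at 23.7 ± 4.66 CPM and F2rl3 at 18.6 ± 3.10 CPM. Per kilobase F2r lay at 22.5 ± 1.36, above F2rl2 at 9.48 and F2rl3 at 9.32 CPM per kilobase. The gene of thrombin itself, F2, was at 2.31 ± 0.340 CPM. Tissue factor, F3, had 0, 1 and 8 counts, around the 3 counts that were set as the most a count of 0 allows (0.0977 to 0.1195 CPM, counting error only).

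The glycoprotein Ib-IX-V subunits were low and took different orders over the libraries. The receptor is built from the products of Gp1ba, which carries the binding site for von Willebrand factor, Gp1bb, Gp9 and Gp5. Gp1ba (chr11:70639122-70642036, plus strand) was at 9.12, 14.1 and 15.4 CPM, a mean of 12.9 ± 3.34 CPM. Gp5 (chr16:30307685-30310779, minus strand) was at 3.16, 3.98 and 7.36 CPM, a mean of 4.83 ± 2.23 CPM. Both were lowest in library 1 and highest in library 3. Gp9 (chr6:87778072-87779768, plus strand) ran otherwise, at 8.17, 5.58 and 5.76 CPM with a mean of 6.50 ± 1.45 CPM. It was highest in library 1, and its exact Poisson 95% interval there (7.19 to 9.25 CPM) did not overlap those of library 2 (4.69 to 6.58 CPM) or library 3 (4.93 to 6.69 CPM). The interval of Gp5 in library 3 (6.42 to 8.40 CPM) likewise lay above those of library 1 (2.56 to 3.85 CPM) and library 2 (3.24 to 4.85 CPM). These intervals cover read-counting error only, and amplified reads are not independent molecules.

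Against genes of similar abundance none of the 3 stood out, with an unadjusted p from edgeR of 0.444 for Gp9, 0.167 for Gp5 and 0.209 for Gp1ba. Per kilobase, the ratio of Gp9 to Gp5 was 6.45, 3.49 and 1.95 in libraries 1, 2 and 3, and that of Gp1ba to Gp9 was 0.362, 0.820 and 0.869. The ratio of Gp1ba to Gp5 stayed closer, at 2.33, 2.86 and 1.70. Gp1bb had only 11, 13 and 26 counts (0.581 ± 0.260 CPM), but 90.6% of its 50-base words recur in the annotated transcripts of other genes, which makes this count uncertain. For Gp1ba, Gp9 and Gp5 that share was 0%.

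The integrin chain Itgb3, which pairs with Itga2b in platelets and with Itgav in many cells, was among the more abundant members. Itgb3 (chr11:104608000-104670476, plus strand) was at 34.3, 47.9 and 52.0 CPM, a mean of 44.8 ± 9.28 CPM. Library 1 lay below the others, as it did for Itga2b, at 17.5, 30.8 and 24.6 CPM. Itgav was even over the libraries, at 58.6, 56.7 and 58.3 CPM. The per-kilobase ratio of Itga2b to Itgb3 was 0.586 ± 0.0958 and that of Itgav to Itgb3 was 0.734 ± 0.177. Over the longest annotated transcripts in place of all exons, Itgav lay above Itgb3, at 8.20 against 7.74 CPM per kilobase, so their order depends on the length used. Itga2b lay at 7.07 CPM per kilobase over these transcripts, nearer to Itgb3 than over all exons.

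Vwf, which encodes the tethering protein itself, was highest in library 1. Vwf (chr6:125546774-125686679, plus strand) was at 30.9, 22.8 and 18.9 CPM, a mean of 24.2 ± 6.12 CPM. The 13 stem cell genes listed with it summed to 1233, 1054 and 958 CPM in the same libraries. Most of this sum was Hlf, a factor of long-term stem cells, at 802, 647 and 589 CPM. Of the 13 genes, 8 were highest in library 1, 3 in library 2 and 2 in library 3. The 10 endothelial markers, 4 of them at or above 1 CPM, summed to 206, 175 and 161 CPM, also highest in library 1. Nearly all of this came from Pecam1 (107 ± 5.57 CPM), Tie1 (46.1 ± 12.3 CPM) and Emcn (24.8 ± 6.60 CPM), which blood stem cells also express. Cdh5, the endothelial cadherin gene, named after its values were seen, had 0 counts in library 1 and 14 and 7 in libraries 2 and 3, and Sox17 had 0 in all 3. Plvap was at 0.749, 0.438 and 0.533 CPM and Kdr at 1.92, 1.95 and 1.03 CPM in libraries 1, 2 and 3. Of the 10 markers, 6 were highest in library 1, where Vwf was highest, and 3 in library 2. The part of the stem cell and endothelial genes in the Vwf values was not tested.

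Selp encodes P-selectin, which is stored in platelet and endothelial granules and moves to the surface on activation. Selp (chr1:164115264-164150026, plus strand) was at 43.3, 51.6 and 38.5 CPM, a mean of 44.4 ± 6.65 CPM, highest in library 2. Its count is less certain than the others, since 11.2% of its 50-base words occur in other genes and exons of transcripts on the opposite strand overlap it. The strand setting of the counting is not given in the sources used here. Its ligand gene Selplg was at 96.7 ± 9.49 CPM. Sele, the endothelial selectin gene, was at 6.97, 17.0 and 13.6 CPM, lowest in library 1.

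Pf4, a chemokine that fills the alpha granules of platelets, was low in CPM but has short transcripts. Pf4 (chr5:90772435-90773383, plus strand) was at 5.57, 6.49 and 8.16 CPM, a mean of 6.74 ± 1.31 CPM. Library 1 was the lowest and library 3 the highest, as for Gp1ba, Gp5 and Itgb3. Over 721 bases of exons this came to 9.35 ± 1.82 CPM per kilobase. Ppbp, the neighbouring alpha granule chemokine, lay at 1.27 CPM per kilobase (32, 42 and 42 counts).

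Per kilobase of exons, Nfe2 and F2r stood above the rest and Gp5 and Vwf below. The means were 37.6 ± 2.18 CPM per kilobase for Nfe2, 22.5 ± 1.36 for F2r, 12.7 ± 1.37 for Gfi1b, 10.1 ± 1.51 for Selp and 9.35 ± 1.82 for Pf4. They continued with 7.59 ± 1.57 for Itgb3, 7.38 ± 1.64 for Gp9, 4.74 ± 1.23 for Gp1ba, 2.20 ± 1.01 for Gp5 and 1.51 ± 0.381 for Vwf, 24.96-fold below Nfe2. Of the 9 pairs of neighbours in this order, 4 had ranges over the libraries that did not overlap: Nfe2 and F2r, F2r and Gfi1b, Gp9 and Gp1ba, and Gp1ba and Gp5. The other 5 pairs, from Gfi1b down to Gp9 and at the end Gp5 and Vwf, had overlapping ranges, although Gfi1b lay above Selp and Pf4 above Itgb3 in each library. Over the longest transcripts Selp lay above Gfi1b instead, at 12.9 against 12.8 CPM per kilobase. Itgb3 and Gp9 were the closest pair, with a log2 difference of 0.04 ± 0.58 (SD). Flipping the signs of the within-library differences (exact permutation test, two-sided) gave p = 0.25 for the 6 pairs with the same order in all 3 libraries, the smallest that 3 libraries allow (0.375 after Benjamini-Hochberg adjustment over the 9 pairs). Without library 1, 8 of the 9 pairs did not overlap. The place of Vwf rests on 16064 bases of annotated exons, and over its longest transcript of 8834 bases it lay at 2.74 CPM per kilobase, above Gp5.

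**Figure D2:**
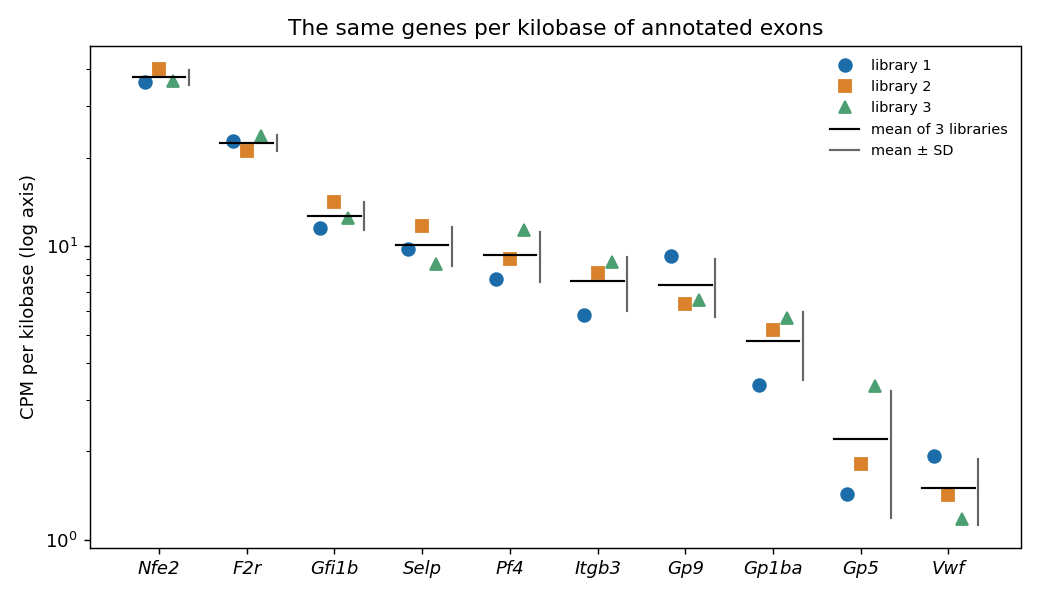
CPM per kilobase of annotated exons (log axis) of the 10 genes in libraries 1, 2 and 3 (points), in falling order of the mean log2 value, with the mean (black bar) and mean ± SD (grey line). Nfe2 and F2r are clear of the others, and the genes from Gfi1b to Gp9 overlap between neighbours.

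How much the members varied was set against all genes. A chi-square test of the counts, which asks only for a departure from read-counting noise, called all 10 members after Benjamini-Hochberg adjustment over all genes tested, with adjusted p from 4.22e-25 (Itgb3) to 0.00103 (F2r). It also called 82.6% of all genes tested, so the members' count is read against a high background. Against genes of similar abundance, edgeR's quasi-likelihood fit called 0 of the 10 members at an adjusted p under 0.05 and 0 at an unadjusted p under 0.05, where 0.00771% and 4.54% of all genes were called. The smallest unadjusted edgeR p of a member was 0.0899 for Vwf. The highest library exceeded the lowest more than 2-fold in 1 member, Gp5 (2.33-fold), against 11.7% of all genes tested. The median of this fold over the members was 1.47, and over all genes tested 1.29.

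**Figure D3:**
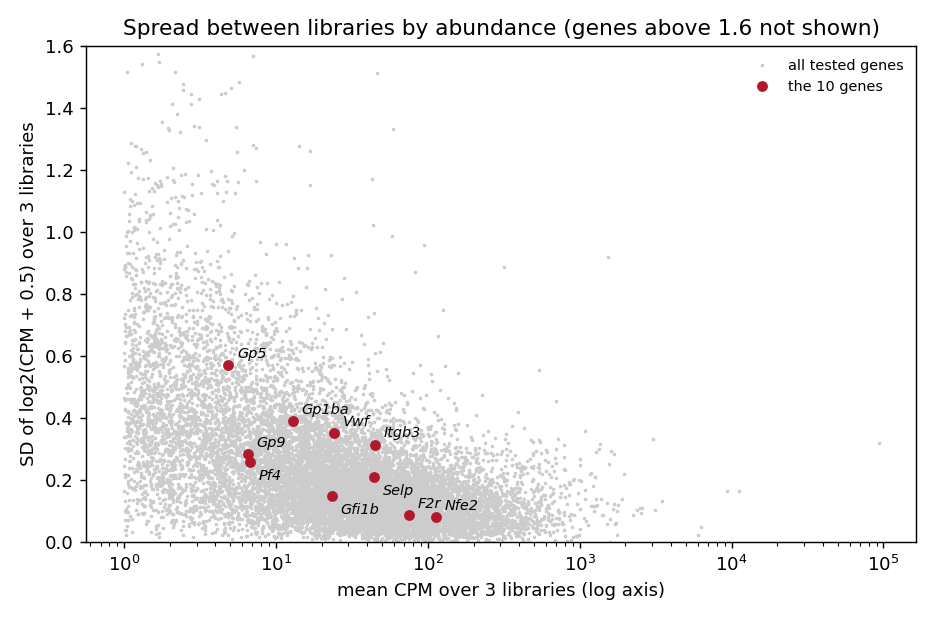
SD of log2(CPM + 0.5) over the 3 libraries against mean CPM (log axis) for all genes at or above 1 CPM (grey) and the 10 members (red). Gp5 has the widest spread of the members and Nfe2 the smallest, and edgeR called none of the 10 against the trend.

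The members did not rise and fall over the libraries as a block. Their sum was 340 CPM in library 1, 368 in library 2 and 357 in library 3. Nfe2 and F2r, both steady, made up 52.8% of the sum of the means, so it says little about the other members. Within that sum 4 members, Gp5, Gp1ba, Itgb3 and Pf4, were lowest in library 1 and highest in library 3. Among all genes tested, 22.8% showed this order. Vwf and Gp9 were highest in library 1 (31.9% of all genes), Nfe2, Gfi1b and Selp in library 2 (35.6%) and the remaining 5 in library 3 (32.5%). With TMM scaling each gene kept its highest library, while without the ribosomal precursor Rn45s in the totals that of F2r moved from library 3 to library 1. The sum of the 10 granulocyte markers took the same order as these 4 genes, at 977, 1877 and 2998 CPM. All 10 markers reached 1 CPM, with 5 of them highest in library 3 and 5 in library 1, and most of the sum was Mpo at 683, 1544 and 2403 CPM. Elane, the neutrophil elastase gene, was at 24.7, 112 and 239.8 CPM in the same order, and was the 1 gene of all those tested that edgeR called (adjusted p = 0.0191). Their part in the values of the 4 genes was not tested.

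**Figure D4:**
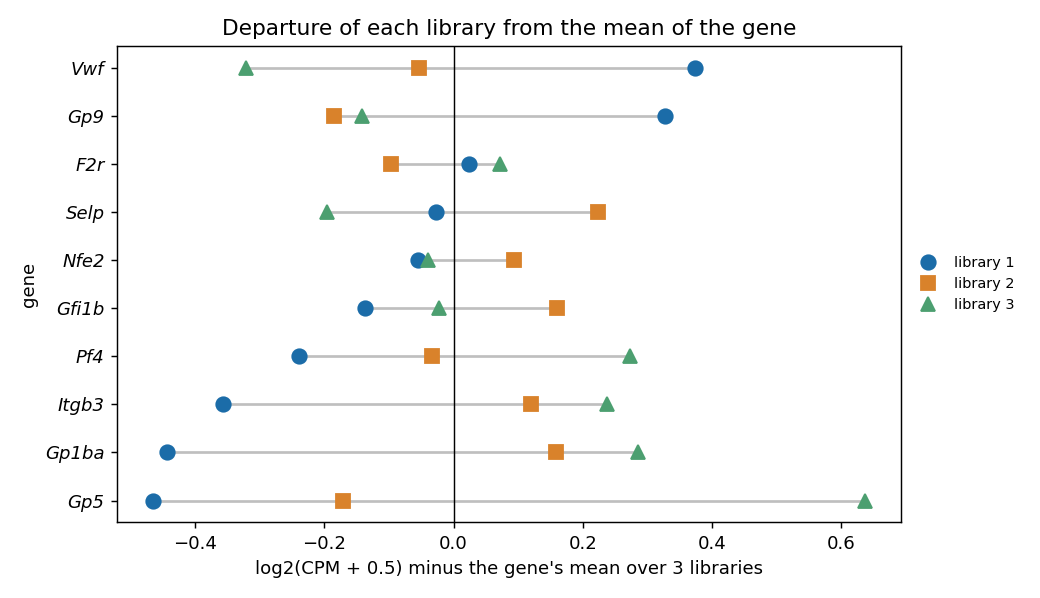
Departure of log2(CPM + 0.5) in libraries 1, 2 and 3 from each gene's mean over the libraries (points, joined by a grey line per gene). Library 1 is at the right for Vwf and Gp9 and at the left for Gp5, Gp1ba, Itgb3 and Pf4.

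The nearest profiles among 82 related genes at or above 1 CPM were sought by Euclidean distance between centred log2(CPM + 0.5) values over the 3 libraries. Vwf was nearest to Tbxa2r, the thromboxane receptor gene, at a distance of 0.11. Gp1ba was nearest to the protease inhibitor gene Serpine2 (0.09), Itgb3 to Itgb1 (0.15) and Pf4 to F2rl3 (0.04). Selp was nearest to Mafg (0.04), Gp9 to Ikzf5 (0.03, where Ikzf5 shares 81.4% of its words with other genes and is uncertain), Nfe2 to Cd63 (0.04), Gfi1b to Gna12 (0.06) and Gp5 to Clu (0.31). With 3 libraries such likeness is common: 146 of all genes tested were as near to Vwf as Tbxa2r was, and 726 as near to Itgb3 as Itgb1 was.

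Other megakaryocyte genes ranged from abundant regulators to platelet genes near 0. All 20 transcription factors and cofactors of the list reached 1 CPM, and the 19 with an annotated length had a median of 22.7 CPM per kilobase. Among the highest in CPM were Etv6 at 674 ± 25.3, the bridging factor gene Lmo2 at 519 ± 30.0, Mef2c at 387 ± 13.6 and Runx1 at 277 ± 13.1 CPM, with the ETS factor gene Fli1 at 193 ± 6.56 CPM. Gata1, the factor of megakaryocyte and erythroid commitment, was at 2.83, 8.57 and 5.56 CPM, lowest in library 1 like Gfi1b, and Maff was the lowest member at 4.83 ± 1.19 CPM. Mafg, whose product pairs with that of Nfe2, lay at 14.9 ± 1.97 CPM, and per kilobase at 0.0702 ± 0.00576 of the Nfe2 level. The chi-square test called 20 of the 20, against 82.6% of all genes tested.

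Of the 19 other platelet receptor and partner genes, 15 reached 1 CPM, and the list median was 4.46 CPM per kilobase. Among the higher members in CPM were the integrin chain gene Itgb1 at 185 ± 26.0 CPM and the granule membrane gene Cd63 at 67.8 ± 4.39 CPM. At the other end, Treml1, a receptor of platelet granules, had 37, 48 and 42 counts, Clec1b, the podoplanin receptor gene, had 0, 25 and 13, and Gp6, the collagen receptor gene, had 0 in all 3. Fcer1g, the signalling chain that carries Gp6 on platelets and Fc receptors elsewhere, was at 36.7 ± 7.13 CPM. The chi-square test called 13 of the 15, near the 82.6% of all genes tested.

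Granule, cytoskeleton and signalling genes spanned a wide range as well. Of 18 granule and coagulation genes 16 reached 1 CPM (median 4.01 CPM per kilobase, 13 called by the chi-square test, which called 82.6% of all genes), led by the proteoglycan gene Srgn at 504 ± 36.2, Ap3b1 at 250 ± 17.5, Nbeal2 at 147 ± 24.6 and Tgfb1 at 89.1 ± 6.74 CPM. Pdgfb was at 0.533 ± 0.479 CPM and Fgg had no count. Of 14 cytoskeleton and integrin activation genes 13 reached 1 CPM (median 22.8 CPM per kilobase, 10 called), led by Pfn1 at 508 ± 31.6, Cfl1 at 499.7 ± 6.04, Tln1 at 459 ± 38.4 and Myh9 at 326 ± 17.7 CPM. Tubb1, the tubulin of proplatelets, had 0, 7 and 22 counts. Of 13 thrombin receptor signalling genes 11 reached 1 CPM (median 9.32 CPM per kilobase, 8 called), among them Plcb2 at 292 ± 26.8, Gna13 at 245 ± 7.59, Arrb1 at 131 ± 6.61 and Gnaq at 110.4 ± 11.8 CPM. Of 9 selectin and adhesive partner genes 7 reached 1 CPM (median 4.21 CPM per kilobase, 7 called), with Adamts13, the protease that cleaves von Willebrand factor, at 20.7 ± 4.18 CPM, Esam at 15.8 ± 1.56 CPM and Vtn at 0, 2 and 2 counts. None of these lists had a member past edgeR's test of spread over the trend.

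**Figure D5:**
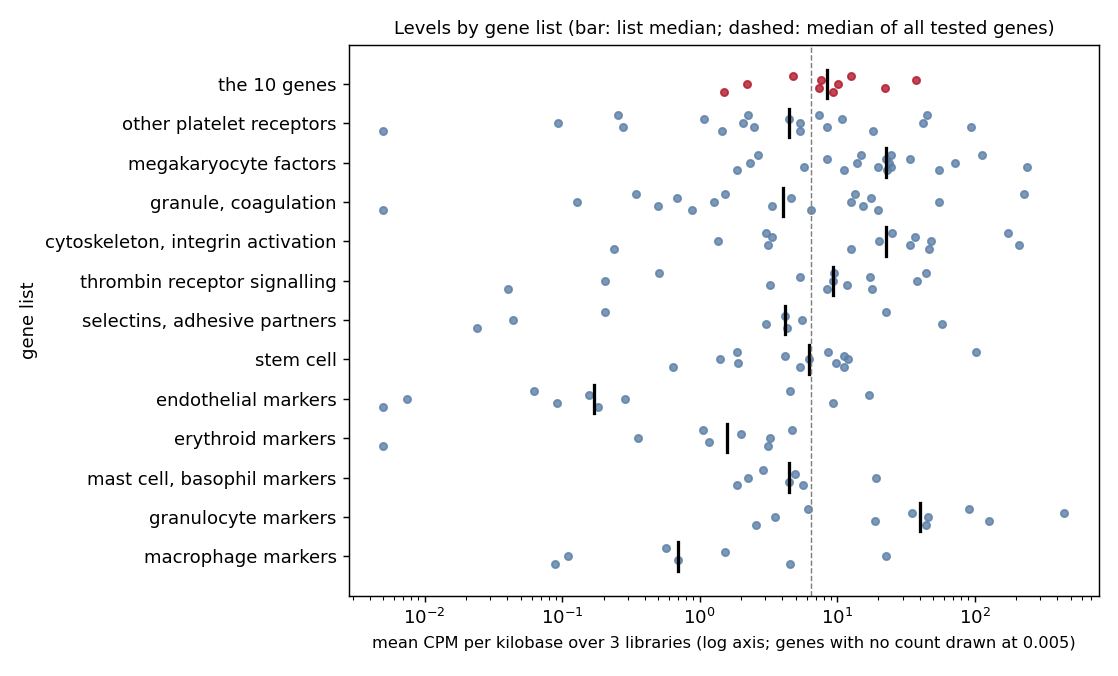
Mean CPM per kilobase over the 3 libraries (log axis) for each gene (points) of 13 lists, with list medians (bars) and the median of all tested genes (dashed line, 6.45). Genes with no annotated length are not drawn. The medians of the megakaryocyte factors (22.7) and the cytoskeleton genes (22.8) lie above the dashed line and that of the endothelial markers (0.169) below it. Each of these named lists has single genes on both sides of the line.

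Markers of other cells that could share the gate were given beside these values. Of the 9 erythroid markers with an entry 7 reached 1 CPM, with a sum of 36.3, 40.3 and 39.5 CPM, led by Alas2 at 11.3 ± 3.14 CPM. Hba-a1 and Hbb-b1 had no count, where 72.3% of the words of Hba-a1 are shared with other genes. All 7 mast cell and basophil markers reached 1 CPM, with a sum of 56.8, 59.0 and 56.1 CPM, led by Cpa3 at 29.1 ± 1.10 CPM. This near-even sum held opposite orders, with 2 of the 7 highest in library 1, 3 in library 2 and 2 in library 3. Mcpt4 was at 12.2, 2.23 and 1.898 CPM in libraries 1, 2 and 3, and Mcpt8 at 1.595, 5.62 and 9.62 CPM. Of 7 macrophage markers 5 reached 1 CPM, with a sum of 60.0, 59.7 and 79.0 CPM, and C1qa was at 0.114 ± 0.0708 CPM. This sum also held opposite orders, with 4 of the 7 highest in library 1 and 3 in library 3. Csf1r was at 15.5, 28.0 and 35.3 CPM in libraries 1, 2 and 3, and Mrc1 at 6.64, 4.10 and 2.56 CPM. The part of all these markers in the levels of the 10 genes was not tested.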

How the data were processed

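RNA of sorted HSPCs was measured in 3 control libraries. The authors deposited 1 table of raw counts for each library, in whole reads per gene symbol with no normalization. Per the submitters' processing notes, the authors used TopHat2 2.0.9, HTSeq and DESeq2 with mm10. Which gene model and strand setting were used for counting is not given in the sources used here. Per the labels' protocols, 10 ng of total RNA gave amplified cDNA, primed at poly(A) tails and at random, so reads are not independent molecules. HTSeq leaves out reads with several alignments, so genes with close copies are undercounted. The 92 spike-in and 5 category entries (61.8%, 65.9% and 60.0% of all counts) were left out.

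CPM values are counts over the total of gene entries. On the scale log2(CPM + 0.5) differences of low genes are understated. Exon lengths, positions and shared 50-base words came from GENCODE M21 (GRCm38), with 95.6% of symbols matched to 1 gene. Tests covered genes whose mean reached 1 CPM, with Benjamini-Hochberg adjusted p under 0.05, by a chi-square test (2 degrees of freedom) and by edgeR (quasi-likelihood fit, intercept only, TMM, robust, F test of the quasi-dispersion over its trend). Both tests were tested on simulated data, but the shares of changed genes recovered are not reported here. A gene left uncalled is therefore not shown to be even over the libraries. The members and lists were chosen with earlier results of these data known. Named were all members, the 4 highest and the lowest detected gene of each list, genes with no count, fixed partner genes, and the nearest profile of each member. F2rl2, Cdh5, Plvap and Fcer1g were named after their values were seen, and some genes that the rule names are not reported here. Alternatives were TMM, DESeq2 size factors, totals without Rn45s, other minima, pseudocounts and lengths, other edgeR settings, and leaving out each library. Software was R 4.3.3 with edgeR 4.0.16 and DESeq2 1.42.0, with SciPy 1.17.1, pandas 2.3.3 and NumPy 2.4.6 under Python 3.11.15.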

Additional observations from a re-analysis of the deposited data

Results flagged for a closer look

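Spike-in RNA was counted in all 3 control libraries, in entries that no comparison used, and no other group of samples was set against it. The ERCC entries took 0.567%, 0.325% and 0.233% of all counts in libraries 1, 2 and 3. The labels do not state how much was added.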

How the results depend on the processing

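The number of members at or above 1 CPM was 10 with each scaling, at a minimum of 0.5 CPM and without any 1 library, and 9 at 5 CPM, which Gp5 missed. The median member lay between 22.6 and 25.2 CPM when 1 library was left out and at 26.2 CPM without Rn45s in the totals. Those totals also raised Nfe2 to 124 CPM and F2r to 82.8 CPM, by more than their spread, since Rn45s took 7.91% to 11.8% of gene counts. The chi-square test called 7 to 8 of the 10 members when 1 library was left out, where it called 51.4% to 67.3% of all genes. With edgeR no member was called under any setting, and unadjusted p was under 0.05 for 1 member, Selp, without library 1. Leaving out library 1 also raised the calls among all genes at an adjusted p under 0.05 from 1 to 33. The share of all genes under an unadjusted 0.05 in that setting is not given here. The number of neighbour pairs without overlap was 4 with other lengths and pseudocounts and 5 to 8 when 1 library was left out (8 without library 1), where ranges rest on fewer libraries. No paired analysis was possible because the libraries form 1 group. Counting limits Gp5, Gp9 and Pf4 most.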
